A study of Homo sapiens with 12 samples.

Results

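Ribosome footprints of protein-coding genes were compared between HepG2 cells treated with siRNA against IGF2BP3 (siIGF2BP3) and cells treated with a control siRNA (siControl), and the functions of the genes whose footprints rose or fell were described. A gene was included where the GENCODE annotation, matched by identifier without its version, gave it as protein-coding. This held for 19831 of the 58721 genes in the files, without the Y copies of pseudoautosomal genes, and 12387 of them passed the filter on low counts over all 6 footprint libraries. With siIGF2BP3 replicate 1 left out, 12497 passed over the remaining 5. HepG2 is a human liver tumour line that keeps many features of hepatocytes. Each group had 3 libraries of ribosome-protected fragments (RPF, footprints of 28 to 30 nt) and 3 RNA-seq libraries (Input), 12 in all. The knockdown was transient, cells were collected on day 2, and every group received cycloheximide at 100 µg/mL for 4 min to hold ribosomes in place. The labels do not say that replicates came from separate cultures, so each p-value measures the spread between these libraries, which may be technical.

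IGF2BP3 is an RNA-binding protein that is abundant in the embryo, largely silent in adult tissue and made again in many tumours, liver cancer included. It and its paralogues bind mRNAs, and are known for changing how long these last and how well they are translated. A footprint is the piece of mRNA that a translating ribosome shields from nuclease, so the footprint count of a gene moves both with the amount of its mRNA and with the number of ribosomes on each copy. In bulk cultures, fewer cells of a type and less RNA per cell cannot be told apart.

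The RPF libraries held between 13036423 counts, in siIGF2BP3 replicate 1, and 31510601 counts, in siControl replicate 1. Library siIGF2BP3 RPF replicate 1 stood apart from the rest. Over protein-coding genes its mean chi-square against replicates 2 and 3 of its own group was 15.3 and 17.1, where a value near 1 means that libraries differ by counting noise alone. Replicates 2 and 3 of that group differed by 1.26. Replicates 2 and 3 of siControl differed by 1.06 over protein-coding genes and 0.941 over all genes, so these were counted as 1 sample in means. The SEs and adjusted p-values below come from fits that count them as separate libraries. The level of genes in replicate 1 moved with their base composition. For genes in the lowest decile of GC at wobble positions of codons, the last base of each (median 33.1%), its median footprint level was -0.11 from the siControl mean on the log2 scale, and for the highest decile (median 84.9%) it was 0.41. The same medians were 0.04 and -0.03 in replicate 2, and 0.05 and -0.06 in replicate 3. Results below are therefore given with and without replicate 1.

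**Figure D1:**
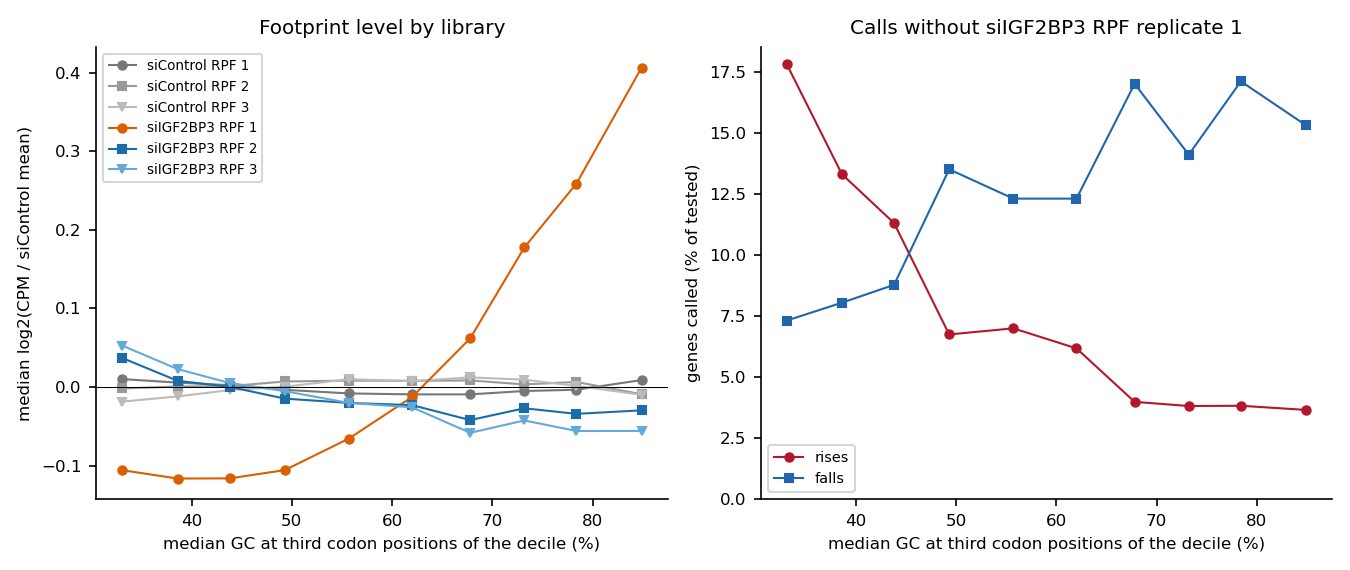
Left, median log2 ratio of footprint CPM to the siControl mean for deciles of protein-coding genes ordered by GC at wobble positions (x axis, percent), with 1 line per RPF library; siIGF2BP3 RPF replicate 1 climbs from -0.11 to 0.41 while the other 5 libraries stay close to 0. Right, percent of tested genes called as rises or falls without that replicate, in the same deciles; rises go from 17.8% to 3.65% and falls from 7.31% to 15.3%.

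The targeted gene fell in every siIGF2BP3 library. IGF2BP3 (chromosome 7, 23310209 to 23470467, minus strand, GRCh38) had 73.4, 78.2 and 77.5 counts per 1e6 footprints of the scaled library total (CPM) in siControl replicates 1 to 3 and 22.8, 27.7 and 25 in siIGF2BP3 replicates 1 to 3. The groups did not overlap, and the log2 fold change was -1.59 ± 0.08 (SE; edgeR adjusted p = 0.000301). In Input its levels were 133, 129 and 127 CPM in siControl and 103, 97.9 and 105 CPM in siIGF2BP3, a log2 fold change of -0.39 (edgeR adjusted p = 1.06e-05). IGF2BP3 overlaps MALSU1 on the opposite strand, and the strand setting of the counting is not given in the sources used here, so some of these reads may be shared. The same limit holds below for YOD1 (with PFKFB2), MVK (with MMAB), RECQL (with PYROXD1), DNAJB9 (with PNPLA8) and SMAD3 (with an unnamed gene). Its paralogue IGF2BP1 had 352, 354 and 355 CPM in siControl and 361, 311 and 317 in siIGF2BP3. It fell without replicate 1 (-0.17 ± 0.02, edgeR adjusted p = 0.000764), while over 6 libraries the difference was -0.10 (edgeR adjusted p = 0.486). IGF2BP2 did not pass in either comparison (-0.05, edgeR adjusted p = 0.388 without replicate 1).

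Hepatocyte markers were abundant in every library. All 12 markers on the list were tested, with summed footprint levels of 91382 to 95504 CPM in siControl and 88703 to 94680 CPM in siIGF2BP3. Without replicate 1, APOB, the core protein of very low density lipoprotein, rose by 0.10, and the iron carrier TF (-0.17) and APOA1 (-0.13) fell. Of 12 markers of other cell types, 7 passed the filter, and only LYZ fell (-0.12, edgeR adjusted p = 0.0166). The median of those 7 genes together was 4.88 CPM. Their summed footprints were 2319, 2420 and 2442 CPM in siControl and 2038, 2174 and 2237 CPM in siIGF2BP3, so not all of them were near that median. The T cell, leukocyte and fibroblast markers CD3E, PTPRC, COL1A1 and COL1A2 did not pass the filter.

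With all 6 libraries, 203 protein-coding genes (1.64%) were called at an adjusted p under 0.05. Of the genes tested, 98 rose (0.791%) and 105 fell (0.848%), and their median absolute log2 fold change was 0.43. This count rested on single libraries. It was 8, 4 and 6 without siControl replicate 1, 2 or 3, 22 and 47 without siIGF2BP3 replicate 2 or 3, and 6 with siControl replicates 2 and 3 summed as 1 sample. Among the genes named here, IGF2BP3, SMIM15, DSC2 and OXR1 were called with that sum, so every other statement below that a gene passed over 6 libraries holds only with these counted separately. An offset for the GC content of exons raised it to 694, with 236 rises and 458 falls, so that 34.0% of calls were rises in place of 48.3%.

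Without siIGF2BP3 RPF replicate 1, 2527 genes (20.2%) were called, 968 up (7.75% of those tested) and 1559 down (12.5%). Here the siIGF2BP3 group was replicates 2 and 3 alone, whose mean chi-square of 1.26 was little more than counting noise. The p-values without replicate 1 may therefore measure a spread that is nearly technical, and no fit without replicate 1 summed that pair. None of the 203 genes lost its call or changed sign when replicate 1 was left out. Both fits share the remaining 5 libraries, so this is not a separate check of those calls. Most changes were small. The median absolute log2 fold change of the called genes was 0.20, 49.1% of them changed by less than 0.2, and 106 changed by at least 0.58. The fit on protein-coding genes alone, whose scaling shifted the median gene from -0.02 to 0.00, called 1528 rises (12.2%) and 1578 falls (12.6%), so that 49.2% of calls were rises in place of 38.3%. Calls became more frequent with level. At a mean of 100 CPM or more, 12.7% of genes rose and 27.3% fell, against 9.77% and 15.5% at 20 to 100 CPM, 5.78% and 8.78% at 5 to 20 CPM and 3.19% and 1.49% below 5 CPM. The shares of the gene groups below are read against these. Leaving out siIGF2BP3 replicate 2 or 3 as well brought the total to 1027 or 1267, with a lone siIGF2BP3 library assumed to vary like the siControl libraries.

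The largest rises and falls were taken only from genes whose fitted libraries did not overlap between groups, so their separation was set by that choice. The largest rise with either set of libraries was that of SMIM15, a small integral membrane protein. Its footprints were at 15.7, 16.4 and 16.0 CPM in siControl and 42.8, 40.2 and 41.6 CPM in siIGF2BP3. The log2 fold change was 1.38 ± 0.05 over 6 libraries (edgeR adjusted p = 0.000116). In Input the gene rose by 0.29. The call held under all 17 alternatives of the 6-library comparison. DSC2, a desmosomal cadherin that ties neighbouring epithelial cells together, had 50.5, 50.1 and 50.8 CPM in siControl and 90.1, 101 and 104 CPM in siIGF2BP3. It rose by 0.96 ± 0.06 (edgeR adjusted p = 0.00117), and the call held under 16 of 17 alternatives.

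Further large rises over 6 libraries came from genes of several functions. Those of the cytoskeleton were CAMSAP2, which binds the minus ends of microtubules (0.75), and ARHGAP5, a GTPase-activating protein (0.65). XIAP, an inhibitor of caspases, had 12, 12.5 and 11.5 CPM in siControl and 19.2, 17.6 and 20.9 CPM in siIGF2BP3, and rose by 0.68 ± 0.08 (edgeR adjusted p = 0.0127). GNPNAT1, an enzyme that makes the amino sugar for protein glycosylation, went from 66.7, 60.2 and 61.0 CPM to 95.7, 98.0 and 99.5 CPM (0.64 ± 0.05, edgeR adjusted p = 0.00412). SSU72, a phosphatase of the RNA polymerase II tail, rose by 0.64, as did MTX3, a protein of the outer mitochondrial membrane, and CFDP1 by 0.61. DESI2, a protease of SUMO and ubiquitin, rose by 0.71 and AP1AR, which acts with the clathrin adaptor AP-1, by 0.65. The KRAB zinc finger genes ZNF91, a silencer of retrotransposons, and ZNF714 rose by 0.95 and 0.99 from about 4 CPM. Their reads may be partly shared with near-identical copies. Without replicate 1, SOS2, which loads GTP onto RAS, joined the largest rises (0.68 ± 0.08, edgeR adjusted p = 0.000331).

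Below IGF2BP3, the largest falls included kinases and regulators of mRNA. SIK1, a salt-inducible kinase and quick responder to cAMP, had 24.9, 25.5 and 24.5 CPM in siControl and 16.8, 11.4 and 11.8 CPM in siIGF2BP3. Replicate 1 was nearest to siControl, and the log2 fold change was -0.94 ± 0.13 over 6 libraries (edgeR adjusted p = 0.021) and -1.11 ± 0.05 without replicate 1. CPEB4, which binds the cytoplasmic polyadenylation element of mRNAs, went from 10.8, 12 and 11.7 CPM to 5.41, 5.93 and 6.99 CPM (-0.89 ± 0.10, edgeR adjusted p = 0.0112). FRK, a tyrosine kinase of the SRC family, had 16.2, 16.5 and 16.9 CPM against 8.27, 10.2 and 9.29 CPM (-0.82 ± 0.08, edgeR adjusted p = 0.00765).

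Signalling and housekeeping enzymes made up the rest of the large falls. OXR1, which protects cells from oxidative damage, had 31.9, 31.6 and 32.3 CPM in siControl and 19.4, 19.8 and 19.1 CPM in siIGF2BP3 (-0.72 ± 0.05, edgeR adjusted p = 0.00202). It was also lower in Input (-0.38, edgeR adjusted p = 0.00205) and held under 16 of 17 alternatives. HAL, the first enzyme of histidine breakdown, fell by 0.77, STK3, the MST2 kinase at the head of the Hippo pathway, by 0.65, and FRS2, the docking protein of FGF receptors, by 0.71. TDG, a glycosylase that removes mismatched thymine and oxidised methylcytosine from DNA, fell by 0.64, ANKRD46 by 0.65 and PCMTD1 by 0.68. NKIRAS1, a RAS-like inhibitor of NF-kB signalling, is listed with a fall of 0.80. It lies opposite the far more abundant RPL15, and the strand setting of the counting is not given in the sources used here. Without replicate 1, CCN1 (-0.70), FOS (-0.68), UNKL (-0.69) and YOD1 (-0.64) joined the largest falls. UNKL was at 13.7 CPM in siIGF2BP3 replicate 1, level with siControl at 13.1 to 13.9 CPM, and it overlaps GNPTG on the opposite strand.

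**Figure D2:**
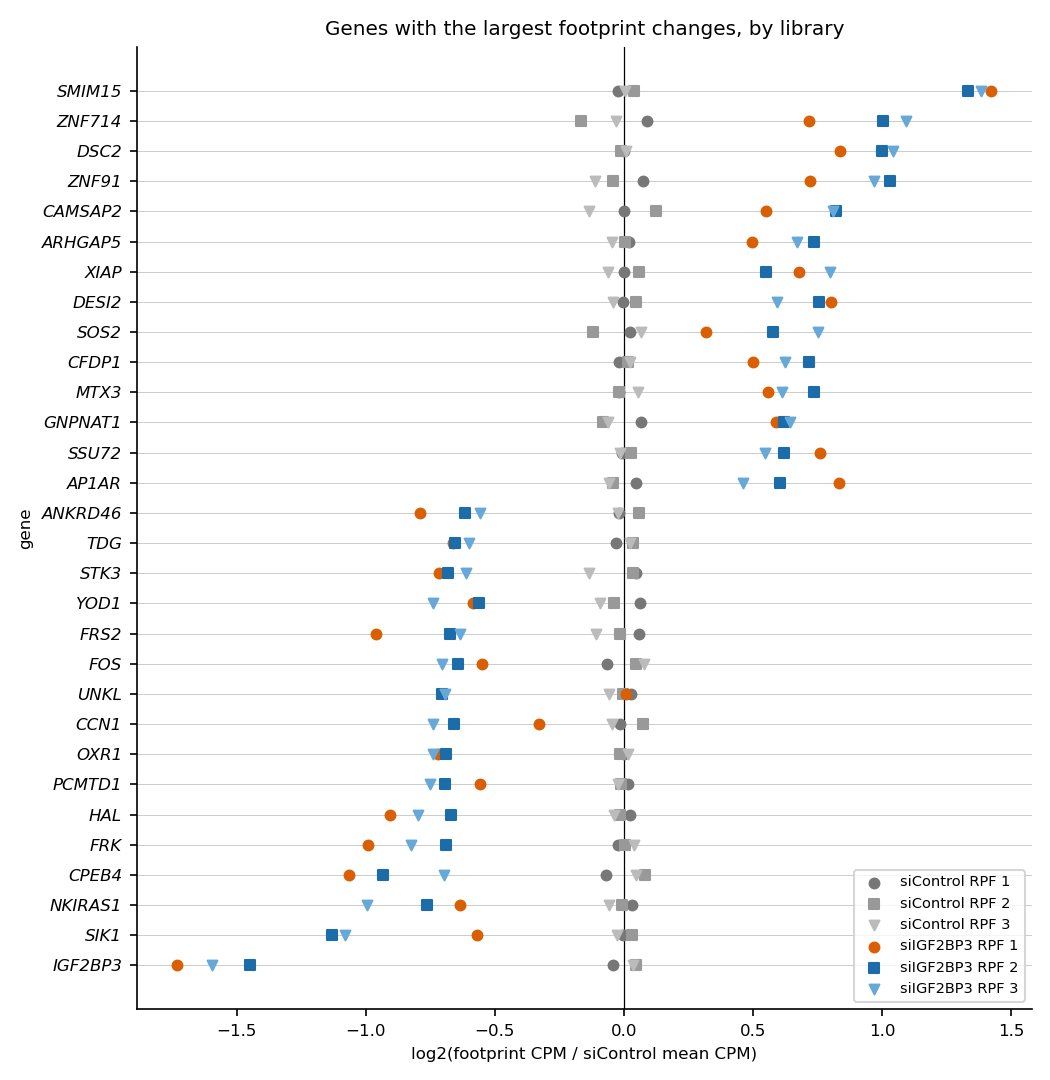
Log2 ratio of footprint CPM in each of the 6 RPF libraries to the siControl mean (x axis) for the genes with the largest rises and falls (y axis), with siControl libraries in grey and siIGF2BP3 libraries in colour. The siControl points lie within a narrow band around 0, and siIGF2BP3 replicate 1 sits among them for UNKL and nearer to them than replicates 2 and 3 for SIK1 and CCN1.

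Functions were described with 88 gene lists covering 4481 genes, of which 3905 were tested without replicate 1. These held 1030 of the 2527 called genes. Over 6 libraries no list had more than 5 rises or 4 falls, so the calls by list come from the comparison without replicate 1, and the median of each list in replicate 1 is given beside them. The plot of calls by list shows 27 lists in which at least 5 genes were called one way and rises and falls were at least 20 percentage points apart.

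**Figure D3:**
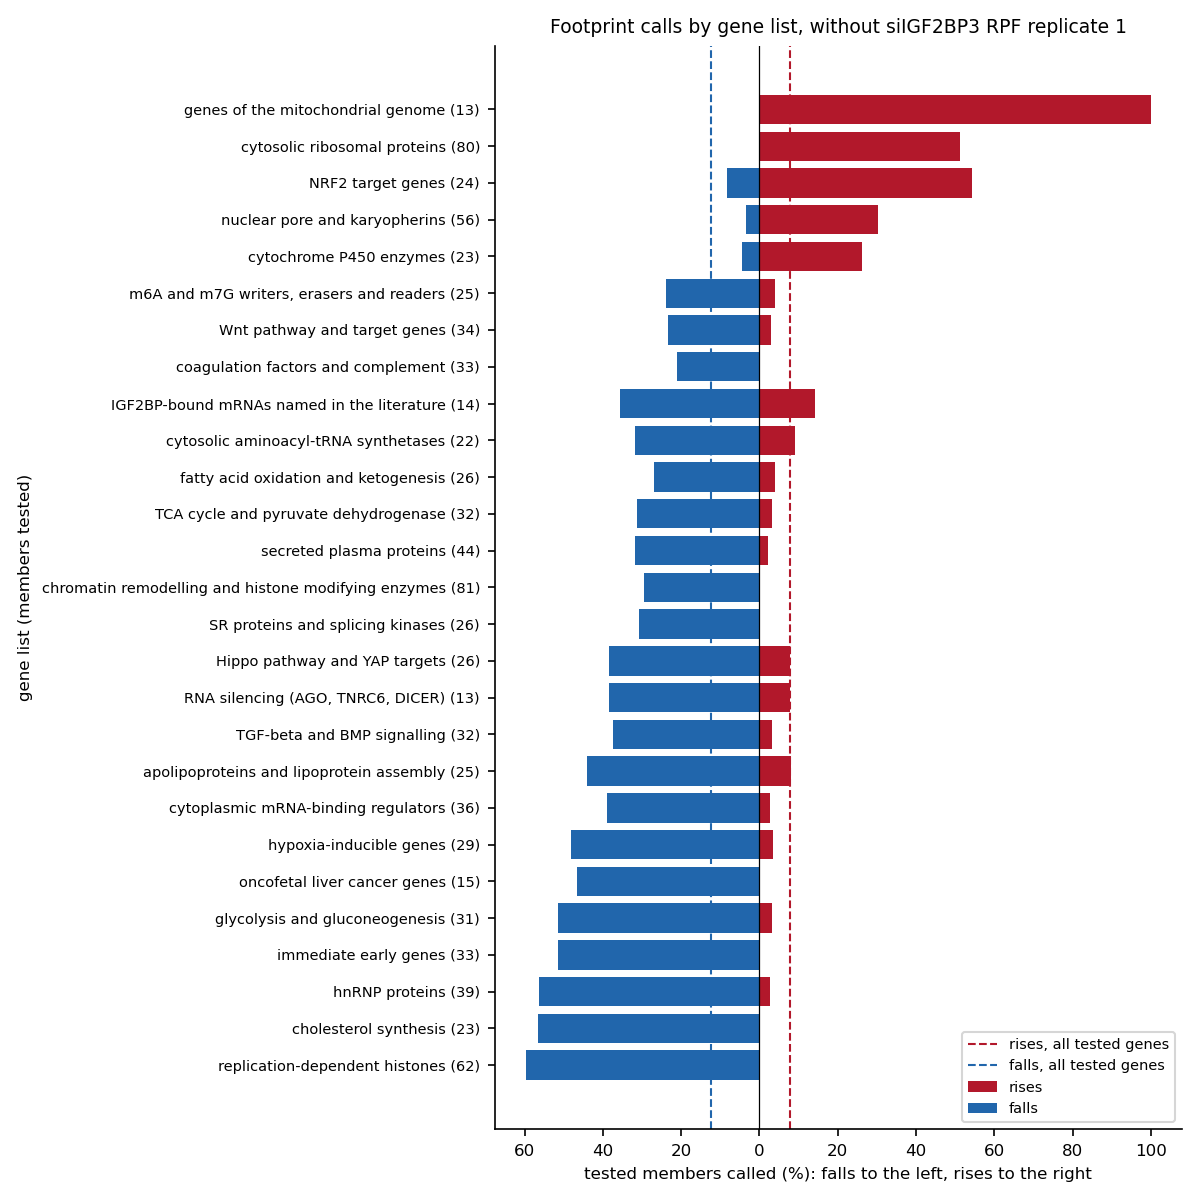
Percent of the tested members of each gene list that rose (right, red) or fell (left, blue) without siIGF2BP3 RPF replicate 1, with the number of members tested in brackets and dashed lines at the shares over all tested protein-coding genes (7.75% rises, 12.5% falls). Of the 27 lists, 5 lean to rises, led by the mitochondrial genome, and 22 lean to falls, led by the replication-dependent histones, cholesterol synthesis, hnRNP proteins and immediate early genes.

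The genes of the mitochondrial genome rose together. Mitochondrial ribosomes translate these mRNAs, which encode subunits of the respiratory chain and of ATP synthase. All 13 rose without replicate 1, against 7.75% of all genes tested, with log2 fold changes of 0.17 to 0.57 and a median of 0.25. Over 6 libraries 5 of 13 passed, and none did with siControl replicates 2 and 3 summed, whereas all 13 passed with that sum where replicate 1 was left out. Their summed footprints were 4171, 4437 and 4369 CPM in siControl and 4766, 5269 and 5037 CPM in siIGF2BP3, so that every siIGF2BP3 library, replicate 1 included, was above every siControl library. This was not particular to the list. Sums of selenoproteins, with 3 rises and 5 falls among 26, were apart too (2289 to 2339 CPM in siControl, 2373 to 2460 CPM in siIGF2BP3). MT-ND6, the subunit of complex I encoded on the light strand, had 94.0, 105 and 99.2 CPM in siControl and 121, 149 and 145 CPM in siIGF2BP3 (0.57 ± 0.04, edgeR adjusted p = 2.3e-05). MT-ND3, another subunit of complex I, had 170, 163 and 167 CPM against 198, 207 and 205 CPM (0.31 ± 0.03, edgeR adjusted p = 5.55e-05). Both genes were separate between groups with and without replicate 1. In Input all 13 fell, with a median of -0.31, so that mRNA and footprints moved in opposite directions. The difference between the assays was not tested. With single libraries left out 11 to 13 rose, and DESeq2 called 13.

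Nuclear genes for mitochondrial proteins had few rises. Mitochondrial ribosomal proteins had 5 rises and 5 falls among 81 tested, and complex I subunits encoded in the nucleus had 1 rise and 7 falls among 38 (median 0.00). Subunits of complexes II to IV had 1 rise and 5 falls among 25, ATP synthase 1 and 2 among 18, and mitochondrial protein import 3 and 4 among 37. Fitted on protein-coding genes alone, mitochondrial ribosomal proteins had 11 rises and 5 falls, complex I 4 and 5, and protein import 5 and 4. Enzymes of the TCA cycle and pyruvate dehydrogenase had 1 rise and 10 falls among 32 (median -0.06). Their 31.2% of falls, at a median level of 97.0 CPM, was near the 27.3% of genes at 100 CPM or more. At 20 to 100 CPM the share was 15.5%. OGDH, which oxidises 2-oxoglutarate, had 83.3, 82.5 and 83.5 CPM in siControl and 66.6, 66.8 and 69.7 CPM in siIGF2BP3 (-0.28 ± 0.03, edgeR adjusted p = 0.000235), and it passed over 6 libraries too. The cytosolic isocitrate dehydrogenase IDH1 fell by 0.25 from about 1060 CPM.

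Cytosolic ribosomal proteins rose slightly but widely. Without replicate 1, 41 of 80 rose and none fell, where 12.7% of genes at a like level of 100 CPM or more rose, with a median log2 fold change of 0.09. The siIGF2BP3 libraries 2 and 3 were both above all siControl libraries for 66 of the 80 genes, against 20.4% of all genes tested, and the medians of the list in siIGF2BP3 replicates 1, 2 and 3 were 0.11, 0.10 and 0.08. Over 6 libraries no gene of the list passed, although 46 were above every siControl library, against 11.3% of all genes. The largest rises were those of RPS2, RPS29 and RPS12, all of the small subunit. RPS29 had 230, 231 and 231 CPM in siControl and 243, 263 and 262 CPM in siIGF2BP3 (0.19 ± 0.02, edgeR adjusted p = 0.000375). In Input 16 of the 80 fell and none rose (median -0.10), again opposite to the footprints.

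The count for ribosomal proteins depended on the fit. It was 60 when protein-coding genes were fitted alone, 16 with DESeq2, and 6 and 15 without siIGF2BP3 replicate 2 or 3. Most of these genes (76 of 80) had non-integer counts in all 6 RPF libraries.

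**Figure D4:**
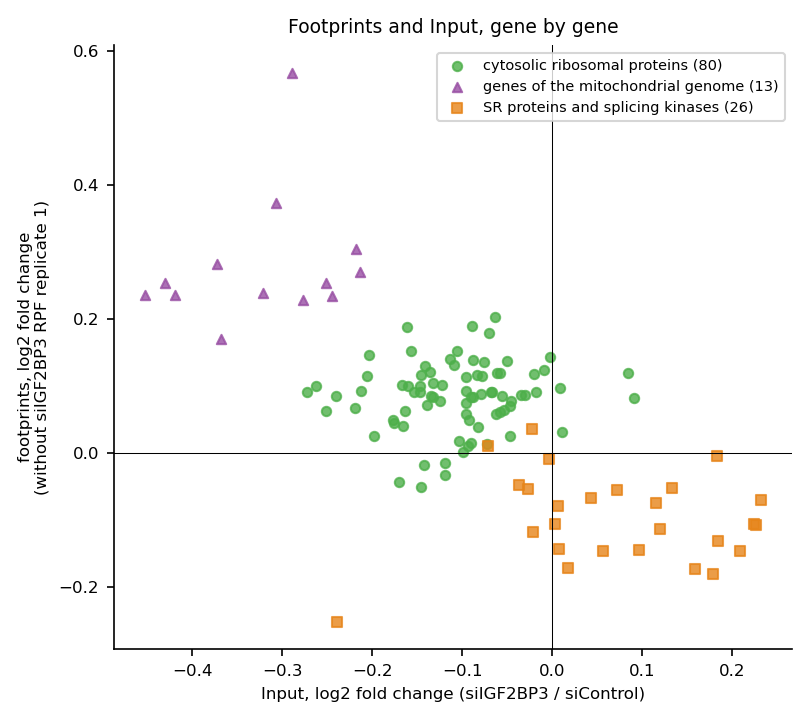
Log2 fold change of footprints without siIGF2BP3 RPF replicate 1 (y axis) against that of Input (x axis), with 1 point per gene, for cytosolic ribosomal proteins, genes of the mitochondrial genome and SR proteins with splicing kinases. All 13 mitochondrial genes lie at the upper left, ribosomal proteins mostly above 0 on the y axis and below 0 on the x axis, and most SR genes at the lower right.

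Targets of NRF2, the transcription factor that answers oxidative stress, mostly rose. Of 24 tested, 13 rose and 2 fell (54.2% and 8.33%, against 12.7% and 27.3% of genes at 100 CPM or more), with list medians of 0.15, 0.09 and 0.09 in siIGF2BP3 replicates 1 to 3. SLC7A11, the cystine importer that feeds glutathione synthesis, had 43.1, 44.1 and 44.2 CPM in siControl and 54.3, 63.6 and 62.0 CPM in siIGF2BP3, without overlap (0.52 ± 0.03, edgeR adjusted p = 1.17e-05; 0.46 over 6 libraries, edgeR adjusted p = 0.0224). FTL, the light chain of ferritin, went from 280, 292 and 297 CPM to 405, 363 and 353 CPM (0.31 ± 0.03, edgeR adjusted p = 8.78e-05). AKR1C1, which reduces steroids and aldehydes, went from 1085, 1210 and 1159 CPM to 1362, 1383 and 1360 CPM (0.25 ± 0.04, edgeR adjusted p = 0.00151). PGD, an enzyme of the pentose phosphate pathway, was among the falls (-0.12). The Input median of the list was -0.01. With single libraries left out, 6 to 12 rose.

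Genes for transport in and out of the nucleus rose as well. Of 56 nucleoporins and karyopherins, 17 rose and 2 fell (30.4% and 3.57%), and 11 to 17 rose with single libraries left out. At 20 to 100 CPM, 9.77% of genes rose and 15.5% fell, and at 100 CPM or more 12.7% and 27.3%. XPO4, an exportin, had 51.3, 51.8 and 51.2 CPM in siControl and 56.3, 66.7 and 66.3 CPM in siIGF2BP3 (0.37 ± 0.03, edgeR adjusted p = 4.31e-05). TNPO1, the import receptor of many hnRNP proteins, rose by 0.33, and SEH1L, a scaffold nucleoporin, by 0.30. KPNA2, an importin alpha of dividing cells, fell from 493, 480 and 492 CPM to 382, 419 and 440 CPM (-0.18 ± 0.03, edgeR adjusted p = 0.00114). In replicate 1 the list median was -0.09, against 0.05 and 0.04 in replicates 2 and 3, so the direction of this group differed in that library.

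Smaller leans to rises were seen in genome maintenance and detoxification. DNA damage response and repair had 12 rises and 5 falls among 60 (20.0% and 8.33%, against 9.77% and 15.5% of genes at 20 to 100 CPM). ATR, the kinase that senses stalled replication forks, was at 49.4, 50.4 and 48.2 CPM in siControl and 62.8 and 60.7 CPM in siIGF2BP3 replicates 2 and 3 (0.33 ± 0.04, edgeR adjusted p = 0.000193). ATR lay within the siControl range in replicate 1, and the list median there was -0.10. RECQL, a DNA helicase, fell by 0.35, and did so over 6 libraries too. Cohesin, condensin and the SMC5/6 complex had 5 rises and 1 fall among 25 (20.0% and 4.0%, against the same shares), led by SMC2 and STAG2 at 0.17 each. Their list median was -0.09 in replicate 1, against 0.05 and 0.04 in replicates 2 and 3. With single libraries left out, 1 to 5 rose. Cytochrome P450 enzymes had 6 rises and 1 fall among 23 (26.1% and 4.35%, against 5.78% and 8.78% of genes at 5 to 20 CPM). CYP4F3, which inactivates leukotriene B4, was at 7.85, 7.27 and 8.30 CPM in siControl and 13, 11.9 and 11.5 CPM in siIGF2BP3 (0.58 ± 0.07, edgeR adjusted p = 0.000359). ABC transporters had 6 rises and 2 falls among 27 (22.2% and 7.41%, against 9.77% and 15.5% of genes at 20 to 100 CPM). In Input 6 of the 27 rose as well, the bile conjugate pump ABCC2 among them (0.19 in footprints, 0.28 in Input). Genes of the ZNF family had 28 rises and 10 falls among 432 (6.48% and 2.31%), against 3.19% and 1.49% of genes below 5 CPM and 5.78% and 8.78% of genes at 5 to 20 CPM. The median level of the list was 4.68 CPM.

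Immediate early genes, which are switched on within minutes of a growth or stress signal and have short-lived mRNAs, fell together without replicate 1. Of 33 tested, 17 fell and none rose (51.5%, against 8.78% of genes at 5 to 20 CPM and 15.5% at 20 to 100 CPM), with a median of -0.19. The falls numbered 15 to 18 with single libraries left out. The 3 largest falls were those of SIK1, CCN1 and FOS, which passed over 6 libraries too. FOS, a subunit of the transcription factor AP-1, had 5.68, 6.15 and 6.27 CPM in siControl and 4.06, 3.81 and 3.65 CPM in siIGF2BP3. CCN1, a secreted matrix protein and YAP target, had 13.8, 14.7 and 13.5 CPM against 11.1, 8.84 and 8.35 CPM. Both were below every siControl library in replicate 1 too. In Input 1 member rose and 2 fell (median 0.03). In replicate 1 the list median was 0.14, on the other side of siControl from the -0.17 and -0.16 of replicates 2 and 3.

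Growth factor pathways differed in their share of falls, and single members moved both ways. DUSP6, the phosphatase that switches off ERK, had 97.0, 92.2 and 92.4 CPM in siControl and 88.3, 68.4 and 68.3 CPM in siIGF2BP3 (-0.46 ± 0.03, edgeR adjusted p = 2.06e-05), and the ERK inhibitors SPRY1 and SPRY4 fell by 0.31 each. Upstream, the adaptor GRB2 rose from 108, 107 and 106 CPM to 135, 133 and 134 CPM (0.32 ± 0.03, edgeR adjusted p = 3.87e-05). The exchange factor SOS1 rose by 0.25. As given above, SOS2 rose and the docking protein FRS2 fell. RAS and MAP kinase signalling as a whole had 8 rises and 10 falls among 58 (17.2% falls, near the 15.5% of genes at 20 to 100 CPM). TGF-beta and BMP signalling had 1 rise and 12 falls among 32 (37.5% falls, against the same 15.5%). The type II receptor BMPR2 fell by 0.35 and SMAD3 by 0.32, while the type I receptor TGFBR1 rose by 0.36. The Hippo list, whose kinases restrain YAP, had 2 rises and 10 falls among 26, with the YAP target ANKRD1 down by 0.33. Its 38.5% of falls compares with 8.78% of genes at 5 to 20 CPM and 15.5% at 20 to 100 CPM. The transcription factor TEAD1 of this pathway had 6.43, 5.70 and 6.13 CPM in siControl and 8.99, 10.1 and 9.29 CPM in siIGF2BP3, and rose by 0.66 ± 0.08 (edgeR adjusted p = 0.000296). Insulin and IGF signalling, the pathway the protein is named for, had no rise and 4 falls among 25, including IRS1 (-0.40), PIK3R1 (-0.32) and AKT2 (-0.27). Their 16.0% of falls was again near the 15.5% of genes at 20 to 100 CPM.

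Glycolysis and the hypoxia response, which share several genes, fell in like proportion. Glycolysis and gluconeogenesis had 16 falls and 1 rise among 31 (51.6% and 3.23%), where 27.3% of genes at 100 CPM or more fell, with a median of -0.14. SLC2A3, a neuronal-type glucose importer used by many tumour cells, had 887, 933 and 927 CPM in siControl and 647, 675 and 703 CPM in siIGF2BP3. All libraries were separate, and it fell with and without replicate 1 (-0.41 ± 0.03, edgeR adjusted p = 2.23e-05) and in Input (-0.34). PFKFB3, which raises flux through phosphofructokinase, fell by 0.37 and the aldolase ALDOC by 0.27. G6PC3, which releases free glucose, was the rise (0.24). Of 29 hypoxia-inducible genes, 14 fell and 1 rose (48.3% falls, against 15.5% of genes at 20 to 100 CPM). ADM, the peptide adrenomedullin, had 27.6, 29.7 and 28.5 CPM in siControl and 25.9, 20.4 and 21.2 CPM in siIGF2BP3 (-0.45 ± 0.05, edgeR adjusted p = 0.000177). LOX, which cross-links collagen, fell by 0.37 and EGLN3, an oxygen sensor, by 0.35. In replicate 1 the medians of both lists were 0.02, and over 6 libraries SLC2A3 was the only gene of either list to pass. With single libraries left out, 9 to 19 fell in glycolysis and 9 to 14 in the hypoxia list.

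Enzymes of cholesterol synthesis fell without replicate 1, and as a list they lay below siControl in all 3 siIGF2BP3 libraries. Of 23 enzymes, 13 fell and none rose (56.5% falls, against 27.3% of genes at 100 CPM or more). List medians were -0.08, -0.11 and -0.11 in replicates 1 to 3. Summed footprints were 4163, 4127 and 4142 CPM in siControl and 3760, 3826 and 3834 CPM in siIGF2BP3, with no overlap. Such separation was not particular to this list. The sums of TCA cycle enzymes, whose share of falls was near that of all genes, did not overlap either (4332 to 4363 CPM in siControl, 3929 to 4042 CPM in siIGF2BP3). LSS, which closes the sterol rings, had 79.5, 77.9 and 75.4 CPM in siControl and 76.4, 63.2 and 58.3 CPM in siIGF2BP3 (-0.35 ± 0.04, edgeR adjusted p = 0.00026). The mevalonate enzymes MVK and MVD fell by 0.33 and 0.30. MVD was at 105 CPM in replicate 1, above its 88.1 to 92.1 CPM in siControl. No enzyme passed over 6 libraries. With single libraries left out 6 to 12 fell, and in Input 1 enzyme fell.

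Among liver products, apolipoproteins and their assembly factors had 11 falls and 2 rises among 25 (44% and 8.0%, against 27.3% and 12.7% of genes at 100 CPM or more). APOC3, which slows the clearance of triglyceride-rich particles, had 364, 391 and 383 CPM in siControl and 307, 313 and 306 CPM in siIGF2BP3 and passed with and without replicate 1 (-0.29 ± 0.03, edgeR adjusted p = 0.000236). APOA5 fell by 0.29 and ANGPTL4 by 0.43, while LCAT, which esterifies cholesterol on HDL, rose by 0.27. LCAT shares exonic bases with the more abundant SLC12A4 on the same strand, so its value is uncertain. Other secreted plasma proteins had 14 falls and 1 rise among 44. Their 31.8% of falls was near the 27.3% of all genes at that level, and 12 of 43 fell in Input. VTN, vitronectin, had 268, 273 and 270 CPM in siControl and 230, 227 and 225 CPM in siIGF2BP3 (-0.26 ± 0.02, edgeR adjusted p = 8.08e-05). Fatty acid oxidation and ketogenesis had 7 falls and 1 rise among 26, including both subunits of the mitochondrial trifunctional protein, HADHA (-0.19) and HADHB (-0.17). Their 26.9% of falls, at a median level of 96.4 CPM, was also near 27.3%, with 15.5% at 20 to 100 CPM.

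Falls were frequent among proteins that package and process RNA. Of 39 hnRNP proteins, which coat new transcripts and steer their splicing, 22 fell and 1 rose (56.4% and 2.56%, against 27.3% and 12.7% of genes at 100 CPM or more). Their medians were -0.14, -0.15 and -0.09 in replicates 1 to 3. Summed footprints were 9480, 9406 and 9427 CPM in siControl and 8898, 8363 and 8708 CPM in siIGF2BP3, so the 3 siIGF2BP3 libraries were the 3 lowest. The same held for the SR proteins described below (3373 to 3419 CPM in siControl, 3186 to 3323 CPM in siIGF2BP3). HNRNPH1, a splicing regulator that binds runs of G, had 508, 498 and 496 CPM in siControl and 405, 401 and 440 CPM in siIGF2BP3. It passed without replicate 1 (-0.25 ± 0.04, edgeR adjusted p = 0.000947) and over 6 libraries (edgeR adjusted p = 0.0439). HNRNPM fell by 0.26 and HNRNPA0 by 0.25, while PTBP3 rose by 0.11. Between 14 and 21 fell with single libraries left out, and in Input 3 fell.

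SR proteins and their kinases, the other main family of splicing regulators, had 8 falls and no rise among 26 (30.8% falls, near the 27.3% of genes at 100 CPM or more; median -0.11), while 7 of 26 rose and none fell in Input (median 0.06). SRSF6 had 166, 158 and 163 CPM in siControl and 164, 141 and 145 CPM in siIGF2BP3 (-0.18 ± 0.03, edgeR adjusted p = 0.00209) and rose by 0.18 in Input. SRSF2 was at 417 CPM in replicate 1, far above siControl at 271 to 289 CPM, against 252 and 247 CPM in replicates 2 and 3. Between 2 and 7 fell with single libraries left out. Core spliceosome proteins had 13 falls and 3 rises among 70 (18.6%), close to the 15.5% of genes at that level.

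Regulators of cytoplasmic mRNA had many falls too. Of 36 mRNA-binding regulators, 14 fell and 1 rose (38.9% falls, against 15.5% of genes at 20 to 100 CPM). Their medians were -0.11, -0.12 and -0.10 in replicates 1 to 3, and 3 falls passed over 6 libraries. The 3 were CPEB4 and the stress granule proteins G3BP1 and G3BP2, with G3BP2 at 222, 217 and 220 CPM in siControl and 188, 174 and 185 CPM in siIGF2BP3 (-0.29 ± 0.03, edgeR adjusted p = 0.000166). FMR1, the protein lost in fragile X syndrome, went the other way, from 30.3, 29.8 and 30.5 CPM to 34.6, 38.7 and 40.1 CPM (0.39 ± 0.04, edgeR adjusted p = 0.000117). Of 13 components of RNA silencing, 5 fell and 1 rose (38.5% falls, against 8.78% of genes at 5 to 20 CPM). TNRC6B, the scaffold that joins Argonaute to deadenylases, had 19.4, 19.6 and 19.6 CPM in siControl and 15.5, 13.1 and 14.9 CPM in siIGF2BP3 (-0.47 ± 0.06, edgeR adjusted p = 0.00052) and passed over 6 libraries. TNRC6C fell by 0.43 and AGO2, the small-RNA-guided nuclease, by 0.37, while AGO3 rose by 0.23. The median of this list was -0.21 in replicate 1. Writers, erasers and readers of m6A and m7G, the group IGF2BP3 itself belongs to, had 6 falls and 1 rise among 25. The falls included IGF2BP3, its paralogue IGF2BP1, the reader QKI (-0.20) and the methyltransferase cofactor ZC3H13 (-0.26), while VIRMA, another cofactor, rose by 0.14.

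Chromatin regulators and histones fell without any rise. Of 81 remodelling and histone-modifying enzymes, 24 fell (29.6%), against 15.5% of genes at 20 to 100 CPM, and the medians were -0.11, -0.10 and -0.08 in replicates 1 to 3. CHD7, a nucleosome remodeller, had 35.6, 34.6 and 35.5 CPM in siControl and 26.4, 24.2 and 25.3 CPM in siIGF2BP3, well apart in all libraries, and passed with and without replicate 1 (-0.51 ± 0.04, edgeR adjusted p = 3.77e-05). CHD6 fell by 0.33 and the DNA methyltransferase DNMT3B by 0.34. In Input 10 of the 81 rose and none fell. The count was 6 and 14 without siIGF2BP3 replicate 2 or 3. Replication-dependent histone genes, whose mRNAs end in a stem-loop in place of a poly(A) tail, had 37 falls among 62 (59.7%) with a median of -0.10. In replicate 1 their median was 0.21. The largest fall among called members with a mean of at least 5 CPM was that of H2BC13. It went from 211, 200 and 210 CPM to 235, 176 and 176 CPM (-0.24 ± 0.03, edgeR adjusted p = 0.000451), with replicate 1 above siControl and replicates 2 and 3 below it. The count was 16 with DESeq2, 12 and 9 without siIGF2BP3 replicate 2 or 3, and 21 with an offset for GC content. Non-integer counts stood in all 6 RPF libraries for 53 of the 62, and 14 of them were tested in Input.

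Several central systems showed mixed or few changes. Translation initiation factors had 7 rises and 9 falls among 43. Of the eIF3 subunits, EIF3E and EIF3L (0.16 each), EIF3K (0.13), EIF3F (0.10) and EIF3M (0.09) rose and EIF3D (-0.14) fell. The scaffold EIF4G1 and the GTPase EIF5B were down (-0.33 and -0.37). EIF5B had 191, 172 and 174 CPM in siControl and 136, 132 and 146 CPM in siIGF2BP3, and passed over 6 libraries. Cytosolic aminoacyl-tRNA synthetases had 2 rises and 7 falls among 22, and ribosome biogenesis factors 5 and 10 among 76. The ATF4 stress response had 6 rises, SLC7A11 and PSPH (0.24) among them, and 12 falls, such as SLC1A5 (-0.31), among 38. ER chaperones and the unfolded protein response had 7 rises and 11 falls among 38. There EDEM1, which marks misfolded glycoproteins for disposal, rose from 20.0, 19.8 and 21.1 CPM to 31.7, 29.3 and 29.2 CPM (0.53 ± 0.04, edgeR adjusted p = 4.59e-05), and the cochaperone DNAJB9 fell by 0.26 and by 0.32 in Input. The proteasome had 4 rises and 2 falls among 49, autophagy 4 and 2 among 41, and peroxisome biogenesis no call among 14. DNA replication and G1/S genes had 5 rises and 10 falls among 58. Of these E2F3, an activator of S phase genes, had 14.4, 15.1 and 13.9 CPM in siControl and 9.94, 9.70 and 10.4 CPM in siIGF2BP3 (-0.53 ± 0.06, edgeR adjusted p = 0.000345), and E2F7, a repressor of them, fell by 0.47. Both passed over 6 libraries as well. The balance of these lists moved with scaling. Fitted on protein-coding genes alone, initiation factors had 12 rises and 8 falls, ribosome biogenesis factors 13 and 10, the proteasome 10 and 2, DNA replication and G1/S genes 8 and 7, and peroxisome biogenesis 3 rises and no fall.

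Of the 14 tested mRNAs that are named in the literature as bound by IGF2BP proteins, 2 rose and 5 fell. These shares of 14.3% and 35.7% compare with 12.7% and 27.3% of all genes at 100 CPM or more. CDK6, a kinase of the G1 phase, had 146, 151 and 143 CPM in siControl and 127, 123 and 127 CPM in siIGF2BP3 (-0.23 ± 0.03, edgeR adjusted p = 0.000718). HMGA2, an architectural chromatin protein of the embryo, fell by 0.23 and MKI67 by 0.17, while TGFBR1 and BTRC rose by 0.36 and 0.16. None passed over 6 libraries. Oncofetal genes of liver cancer had 7 falls and no rise among 15 (46.7% falls, against the same 27.3%), IGF2BP3 and IGF2BP1 included, with SOX4 down by 0.42.

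**Figure D5:**
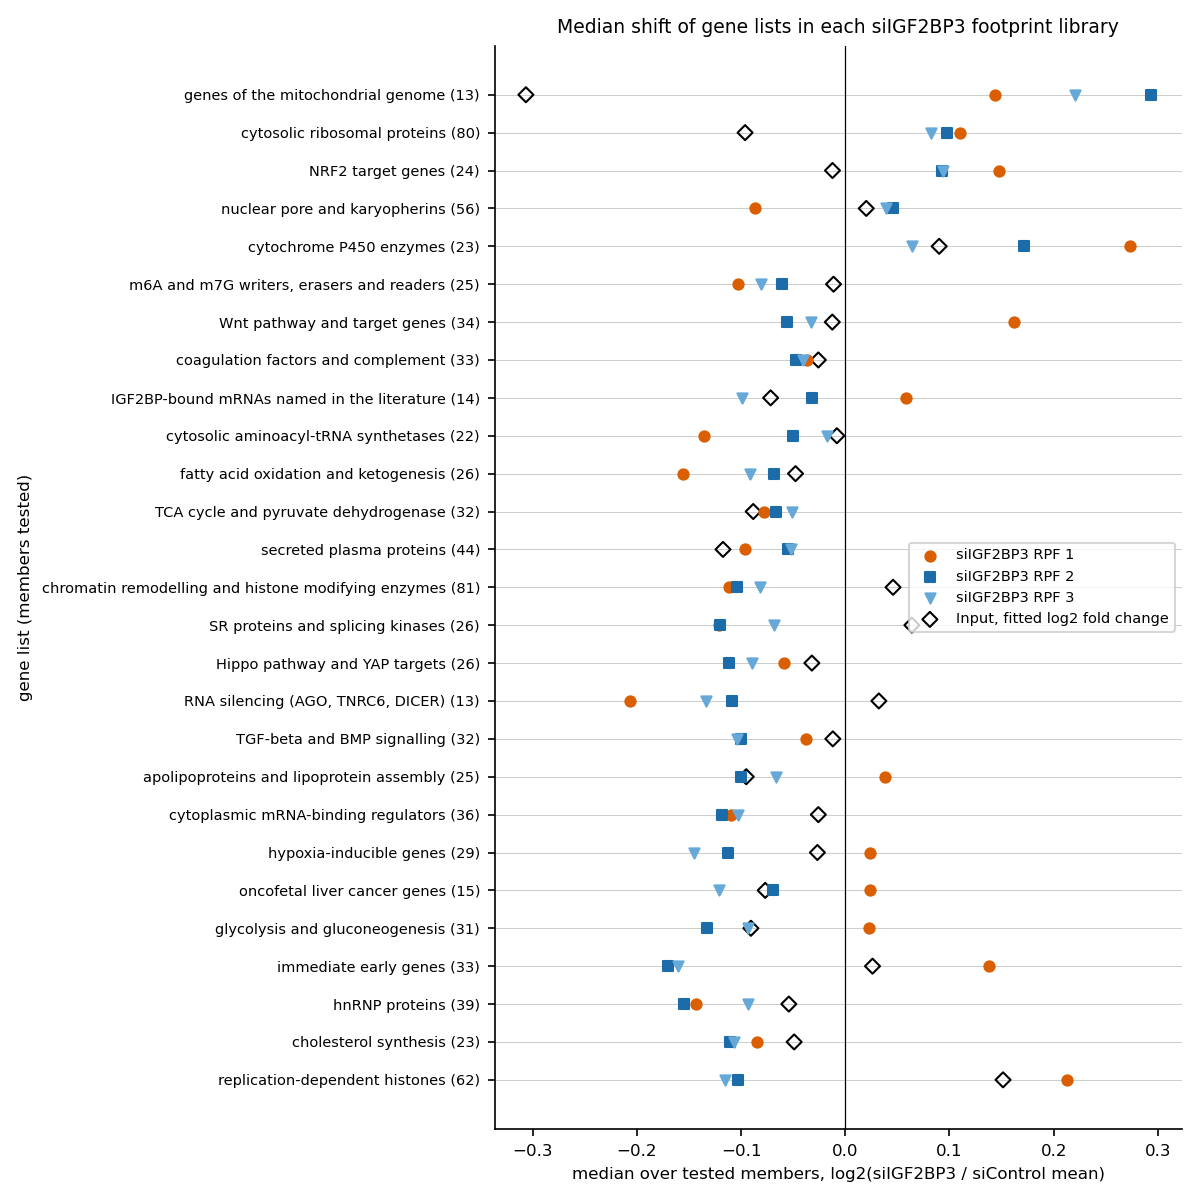
Median over the tested members of each list of the log2 ratio to the siControl mean in siIGF2BP3 RPF replicates 1, 2 and 3 (filled symbols), and the median fitted log2 fold change in Input (open diamonds; for the histones, 14 of the 62 genes were tested in Input). Replicate 1 is on the other side of 0 for lists such as the immediate early genes (0.14) and histones (0.21) and on the same side for hnRNP proteins (-0.14) and mitochondrial genes (0.14).

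The sequence composition of rising and falling genes is given as a description. Without replicate 1, the median GC at wobble positions was 45.2% for rises and 65.3% for falls, with 58.9% for all tested genes, and the share of genes called as rises went from 17.8% in the lowest decile to 3.65% in the highest. Over 6 libraries, rises and falls both had a lower median (46.4% and 49.0%) and longer 3′ untranslated regions (2276 and 2038 bases, against 1247 for all tested genes). Over 5 libraries the medians of that length were 1548 and 1344 bases. With an offset for GC content, the comparison without replicate 1 called 2444 genes, 902 up and 1542 down. With that offset, 40 of the 88 list medians moved by more than the SD between siIGF2BP3 replicates 2 and 3. It gave 13 falls in cholesterol synthesis, 24 in hnRNP proteins, 16 in immediate early genes, 14 in glycolysis and 26 in chromatin enzymes, and 13 rises in the mitochondrial genome, 39 in ribosomal proteins, 14 in NRF2 targets and 16 in nuclear transport.

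In Input, 774 of 12206 protein-coding genes (6.34%) were called, 508 up (4.16%) and 266 down (2.18%), a count that was 387 without siControl replicate 3 and 423 without siIGF2BP3 replicate 3. Of the 2527 genes called in footprints without replicate 1, 2464 were also tested in Input and 257 of these were called there (10.4%, against 6.34% of all genes tested), 156 with the same sign and 101 with the opposite sign. Of the 203 genes called over 6 libraries, 198 were tested in Input and 30 were called there (15.2%), 23 with the same sign and 7 with the opposite sign.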

How the data were processed

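Per the submitters' processing notes and the study's methods, the authors removed adapters and low-quality bases (cutadapt), mapped to hg38 (STAR) and assigned reads to genes (featureCounts); tool versions are not given in the sources used here. The deposited values are estimated counts that need not be whole, and were rounded. Gene types, exon lengths and GC came from GENCODE release 44, which matched 99.2% of identifiers. All genes of a comparison were fitted together in edgeR 4.0.16 (R 4.3.3; filterByExpr, TMM factors, robust quasi-likelihood test, Benjamini-Hochberg adjustment over every gene tested, threshold 0.05), and protein-coding genes were then reported. CPM is the count per 1e6 of the library total times its TMM factor (for Input, of the library total). Per-library ratios used log2(CPM + 0.5). Named genes were the IGF2BP family, the 12 largest rises and 12 largest falls of each footprint comparison with a mean of at least 5 CPM and no overlap between groups, and up to 3 per list and direction. Any other gene was named after its values were seen. Some genes and 1 gene list that these rules select are not reported here. The members, the gene lists and the omission of replicate 1 were chosen with earlier results of these data known, so list counts are descriptions. The fit was tested on simulated data. The alternatives included DESeq2 1.42.0, other scalings and filters, offsets for length and GC, and each library left out. Same-numbered libraries of the 2 groups did not deviate together (r = 0.113, 0.0621 and 0.00883), so the numbers were not taken as pairs. Total counts per RPF library were 13036423 to 31510601.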

Additional observations from a re-analysis of the deposited data

How the results depend on the processing

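With all 6 RPF libraries, the 203 calls became 424 with DESeq2, 694 with the GC offset, 6 with siControl RPF replicates 2 and 3 summed and 2 where siIGF2BP3 replicates 2 and 3 were summed too, and 54 of the 203 changed by 0.58 or more. Leaving out single libraries gave 4 to 2527, the upper value without siIGF2BP3 RPF replicate 1. Without that replicate, the 2527 calls became 1186 with DESeq2 and 106 with that added fold change, and leaving out a further library gave 1027 to 2375. The 774 Input calls ranged from 387 to 809. The other alternatives stayed within 1.5 times, among them the fit of Input on protein-coding genes alone, which was added after seeing the data. With the replicate block the counts were 136, 2541 and 828; siControl replicate 1 correlated best with its own number and siControl replicates 2 and 3 did not. EEF2, TOMM5, CYP27A1 and SRSF2, which did not pass over 6 libraries, changed sign and passed without siIGF2BP3 replicate 1, at -0.11, -0.13, -0.09 and -0.17, and their highest values with other libraries left out were 0.07, 0.18, 0.05 and 0.25. The cause of these changes was not tested. Without siIGF2BP3 replicate 1, 63 of the 88 list medians moved by more than the SD between siIGF2BP3 replicates 2 and 3 in the fit on protein-coding genes alone, and 40 with the GC offset. Below 5 CPM 3.19% of genes rose and 1.49% fell.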

Other observations

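Among groups not described above, metallothioneins and zinc transporters had 6 rises and 9 falls among 30 without siIGF2BP3 RPF replicate 1. These shares of 20.0% and 30.0% compare with 9.77% and 15.5% of genes at 20 to 100 CPM. Among called members with a mean of at least 5 CPM, the 3 largest falls were metallothioneins and the 3 largest rises zinc transporters. Over all tested members the lowest log2 fold change was -1.07. MT1X, a small protein that stores zinc and copper, had 123, 121 and 124 CPM in siControl and 92.7, 83.6 and 84.6 CPM in siIGF2BP3 (-0.54 ± 0.03, edgeR adjusted p = 3.17e-06), and passed over 6 libraries as well. MT2A fell by 0.43, yet stood at 328 CPM in replicate 1, above siControl at 239 to 258 CPM. The zinc importer SLC39A4 rose from 86.4, 90.1 and 89.1 CPM to 162, 113 and 110 CPM (0.33 ± 0.03, edgeR adjusted p = 7.96e-05). SLC30A5, which carries zinc into the secretory pathway, rose by 0.31 and SLC39A10 by 0.28. Metallothionein genes are near-identical, so reads may be split among them, and MT1X, MT1M and MT2A had non-integer counts in all 6 RPF libraries.

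COPI and COPII transport had 8 rises and 11 falls among 43 (18.6% and 25.6%, against 12.7% and 27.3% of genes at 100 CPM or more). SEC24A, a cargo receptor of the COPII coat, had 115, 116 and 110 CPM in siControl and 131, 144 and 147 CPM in siIGF2BP3 (0.36 ± 0.03, edgeR adjusted p = 5.28e-05), while COPB2 of the COPI coat fell by 0.25 and the COPII GTPase SAR1B by 0.21. SEC24A and SAR1B overlap on opposite strands, as do COPB2 and MRPS22, and the strand setting of the counting is not given in the sources used here, so these values are uncertain. The Wnt list had 1 rise and 8 falls among 34 (23.5% falls, against 15.5% of genes at 20 to 100 CPM). NOTUM and NKD1, feedback inhibitors of the pathway, fell by 0.28 and 0.23 without replicate 1 and were at 320 and 216 CPM in that replicate, above their siControl levels of 258 to 267 CPM and 182 to 187 CPM.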
